A study of Mus musculus with 4 samples.

Results

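Polycomb repressive complex 1 (PRC1) genes were followed as a set of 9: Bmi1, Pcgf2, Rnf2, Ring1, Cbx2, Cbx7, Cbx8, Phc1 and Phc3. They were taken by name, each as the window reaching 1 kb up and 1 kb down from its gene-level transcription start site (TSS) in the GENCODE vM1 annotation of mm9, and make up 9 of 22367 protein-coding promoters. No measured value entered the rule, although the genes were put forward with results of these libraries known. Each label stands for a named gene, so the check made here was that all 9 symbols matched 1 annotated gene each.

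PRC1 is a chromatin complex whose catalytic core pairs a RING protein (Rnf2, also called Ring1b, or Ring1) with a PCGF protein and attaches ubiquitin to histone H2A. In its canonical form a CBX protein binds histone H3 trimethylated at lysine 27, the mark laid down by Polycomb repressive complex 2 (PRC2), and a PHC protein links complexes to each other and compacts chromatin. In embryonic stem cells the complex holds developmental genes silent. Cbx7 is the CBX protein best known from the undifferentiated state, and Cbx2 and Cbx8 are known for taking over during differentiation.

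The cells were E14TG2a.4, a mouse embryonic stem cell line that needs no feeder cells, grown on gelatin with serum and LIF. One group is chromatin immunoprecipitated (ChIP-seq) from E14 cells, not labelled as transduced, with the Jarid1b antibody labelled DAIN (2 libraries); Jarid1b, encoded by Kdm5b, is an H3K4 demethylase. The other groups are H3K4me3, a mark of active and poised promoters, in cells carrying the LKO scramble lentiviral vector (1 library) and in cells carrying the LKO Jarid1b shRNA vector (1 library), after puromycin selection; the protocols do not say how far Jarid1b protein was reduced. No gene deletion is labelled in any group, and neither the number of shRNA sequences nor of independent transductions is given in the sources used here.

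Reads kept after 1 read was allowed per strand and 5′ position numbered 4336767 and 1602370 for Jarid1b replicates 1 and 2, 5158330 for scramble H3K4me3 and 2635705 for Jarid1b shRNA H3K4me3. The Jarid1b files shared single fragments: 16.8% of plus-strand positions of replicate 2 occurred at the same base in replicate 1 (next highest offset 1.92%), and 19.8% of minus-strand positions occurred 8 bases away (next 2.67%). They are treated as n = 1 below, and passing in the pair does not show agreement between cultures. Each H3K4me3 condition has 1 library and no replicate, so all differences below compare 2 libraries without a test, and every interval covers counting error only, since reads are not independent molecules. Of 6 stem cell markers matched, 5 carried scramble H3K4me3 (0.582 to 77.7 RPM over all 6, where RPM is reads scaled to a total of 1000000 reads kept, and 0 to 54.3 RPM in the knockdown library). Esrrb, at 3 and 0 reads at its gene-level TSS, was the exception. Fibroblast and neural progenitor markers carried it at 2 of 4 and 2 of 3 (0.582 to 7.37 and 1.55 to 6.01 RPM, and 2.66 to 17.8 and 2.66 to 14.8 RPM in the knockdown library). In the knockdown library the stem cell markers Nanog (log2 ratio −1.23) and Zfp42 (−1.43) were called lower, while Pou5f1 (−0.70), Sox2 (0.23) and Klf4 (0.69) were not called. Of the other markers Twist2 (1.28), Nes (1.30) and Olig2 (2.19) were called higher; whether a shift in cell state has a part in the differences below was not tested.

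H3K4me3 differed between the 2 main starts of Cbx7. The sequences shown are the 250 bases upstream of those starts and of the TSS at the 3 members enriched for Jarid1b. They are printed 5′ to 3′ on the gene's strand from mm9, with capitals marking GGGCGG (a GC box, the core of Sp1-type sites), the CCAAT box, the E-box CACGTG and the TATA box TATAAA on either strand.
Bmi1, chr2:18598395-18598644, plus strand: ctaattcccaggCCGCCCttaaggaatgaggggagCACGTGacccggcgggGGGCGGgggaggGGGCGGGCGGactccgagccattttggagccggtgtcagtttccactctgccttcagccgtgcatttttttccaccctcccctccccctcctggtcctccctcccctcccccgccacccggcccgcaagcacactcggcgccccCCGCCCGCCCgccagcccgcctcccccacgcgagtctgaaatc
Cbx8, chr11:118902284-118902533, minus strand: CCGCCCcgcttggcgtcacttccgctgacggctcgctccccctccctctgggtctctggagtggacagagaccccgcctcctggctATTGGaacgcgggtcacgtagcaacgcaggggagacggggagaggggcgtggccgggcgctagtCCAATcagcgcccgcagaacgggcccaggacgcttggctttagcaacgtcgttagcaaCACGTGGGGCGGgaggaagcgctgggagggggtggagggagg
Phc3, chr3:30868338-30868587, minus strand: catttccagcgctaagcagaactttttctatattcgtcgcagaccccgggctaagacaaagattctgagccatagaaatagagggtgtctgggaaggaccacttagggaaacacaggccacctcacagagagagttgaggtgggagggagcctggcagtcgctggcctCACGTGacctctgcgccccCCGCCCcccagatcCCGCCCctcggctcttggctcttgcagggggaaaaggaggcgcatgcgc
Cbx7 gene-level start, chr15:79801550-79801799, minus strand: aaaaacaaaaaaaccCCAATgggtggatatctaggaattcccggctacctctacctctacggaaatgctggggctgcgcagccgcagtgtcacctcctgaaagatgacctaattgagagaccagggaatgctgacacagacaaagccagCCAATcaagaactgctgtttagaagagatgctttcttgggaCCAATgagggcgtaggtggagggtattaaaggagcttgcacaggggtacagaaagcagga
Cbx7 second start, chr15:79763083-79763332, minus strand: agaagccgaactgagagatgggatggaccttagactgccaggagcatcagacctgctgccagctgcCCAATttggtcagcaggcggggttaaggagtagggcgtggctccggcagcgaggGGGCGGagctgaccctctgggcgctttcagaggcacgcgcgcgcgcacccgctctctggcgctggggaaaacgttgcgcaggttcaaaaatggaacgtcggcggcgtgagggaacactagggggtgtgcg

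The first 3 share 1 CACGTG and at least 2 GGGCGG each. Bmi1 holds 6 GGGCGG matches, of which 2 pairs overlap, at 70.4% GC with 21 CG dinucleotides in 250 bases, against a median of 8 over all promoters. Cbx8 has 24 CG dinucleotides and Phc3 has 12. Over all 9 members CACGTG occurred upstream of 4 (Bmi1, Cbx8, Phc1 and Phc3), where 6.52% of 22362 promoters of the same length have it, and GGGCGG occurred upstream of 6, where 39.6% do. CCAAT was found at 3 members (35% of promoters) and TATAAA at none (12.3%). GCACA and GCACC occurred at 3 and 4 members, against 38.5% and 37.3% of promoters. The gene-level start of Cbx7 stands apart among the printed sequences, with 3 CCAAT, no GGGCGG, 49.6% GC and 5 CG dinucleotides, whereas its second start has 64.0% GC and 21. Phc1, which is not printed, likewise has no GGGCGG, with 44% GC and 7 CG dinucleotides. A match is a description of the letters, not a binding site. Reads were counted over the whole windows, and at Phc3 and the gene-level start of Cbx7 nearly all H3K4me3 reads lay downstream of the TSS.

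Jarid1b was enriched at 3 of 9 PRC1 promoters, Bmi1, Phc3 and Cbx8, in both libraries, by a one-sided exact Poisson test against whichever was higher, the genome-wide rate or the rate in the flanking 10 kb on each side (adjusted p under 0.05 over all promoters). The same call held at 7.97% of all 22367 promoters. Replicate 1 alone called 6 members (26.6% of all promoters), adding Rnf2, Ring1 and Cbx2, and replicate 2 alone called the same 3 as both (10.8%). Only Bmi1 stayed called when the rate in 1 kb bins of the same GC content was added and the highest rate was used. That rule calls 0.595% of all promoters. At Cbx8 the local rate remained the highest, so its folds did not change. Its adjusted p in replicate 2 rose to 0.134 (exact Poisson) under that rule. H3K4me3 was enriched at 8 of 9 members in the scramble library (60% of all promoters) and at 9 of 9 in the knockdown library (59.9%).

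The H3K4me3 ratio of knockdown to scramble, on RPM, could be compared at all 9 members (enriched in either library, at least 20 reads over both). At 2-fold with a 95% interval excluding no change, 5 members were higher in the knockdown library (24.0% of 13273 compared promoters) and 1 was lower (2.37%). Higher were Bmi1, Cbx8, Rnf2, Ring1 and Cbx2; Cbx7 was lower; Pcgf2, Phc3 and Phc1 were not called. The median log2 ratio was 1.06 over the members and 0.41 over all compared promoters. When both libraries were scaled so that this overall median was 0, only Bmi1 (2.39) and Cbx8 (1.56) remained at 2-fold higher and Cbx7 was at −1.67, against 12.0% and 8.97% of all promoters higher and lower. Scaling to background bins gave 7 higher, with Pcgf2 (1.07) and Phc3 (1.04) added, against 33.5%, and Cbx7 lower at −1.02, against 0.912%.

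**Figure D1:**
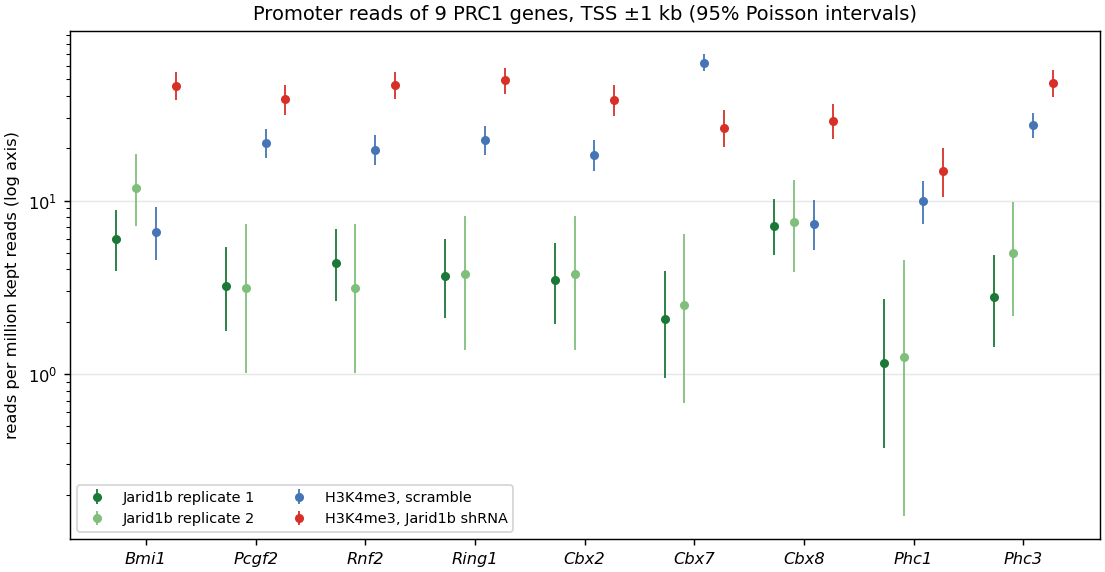
RPM (log axis) within 1 kb of the gene-level TSS of the 9 PRC1 genes in the 4 libraries, with bars for 95% Poisson intervals. Scramble H3K4me3 ranges from 6.59 at Bmi1 to 62.6 at Cbx7, while knockdown H3K4me3 ranges from 14.8 at Phc1 to 49.3 at Ring1, and the Jarid1b points with the fewest reads have the widest bars.

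In the scramble library the order of H3K4me3 levels in the equal windows was Cbx7 (62.6 RPM, 95% Poisson interval 56.0 to 69.8), then Phc3 (27.1), Ring1 (22.3), Pcgf2 (21.5), Rnf2 (19.6) and Cbx2 (18.2), then Phc1 (9.89), Cbx8 (7.37) and Bmi1 (6.59). Cbx7 lay above every other member's interval. Neighbours from Phc3 to Cbx2 had overlapping intervals, as did Phc1, Cbx8 and Bmi1, and the interval of Phc1 (7.36 to 13) ended below that of Cbx2 (14.7 to 22.3). In the knockdown library the order was Ring1 (49.3), Phc3 (47.4), Rnf2 (46.3), Bmi1 (45.9), Pcgf2 (38.3), Cbx2 (37.9), Cbx8 (28.8), Cbx7 (26.2) and Phc1 (14.8), with the intervals of the first 6 overlapping. Bmi1 thus went from the lowest of the 9 to the middle of the group, and Cbx7 from the highest to the next to lowest.

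Among the PCGF proteins, Bmi1 (Pcgf4), a repressor of the Cdkn2a locus and a factor in stem cell self-renewal, had the largest Jarid1b fold over background and the largest H3K4me3 ratio of the set. Its window, chr2:18597645-18599644 on the plus strand, held 26 reads in Jarid1b replicate 1, 19 in replicate 2, 34 in scramble H3K4me3 and 121 in knockdown H3K4me3. Jarid1b was 6.32-fold over background in replicate 1 (4.13 to 9.27, adjusted p = 8.13e-11, exact Poisson) and 15.2-fold in replicate 2 (9.13 to 23.7, adjusted p = 3.37e-13, exact Poisson). Against bins of the same GC content, of which there were 96 in the richest class, these folds were 2.49 and 4.56. Its log2 H3K4me3 ratio was 2.80 (95% interval 2.24 to 3.39), which exceeded that of 99.4% of compared promoters.

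The difference at Bmi1 was alike on both sides of the TSS: 12 reads in scramble and 41 in knockdown in the kb upstream (2.74, 1.79 to 3.80), and 22 and 80 in the kb downstream (2.83, 2.14 to 3.58). Runs of 200-base bins with at least 4 reads, which could pass over single bins with fewer, spanned 0.4 kb in scramble and 1.8 kb in knockdown. The knockdown library holds fewer reads in all. Scramble bins with at least 4 reads also lay farther out on both sides, beyond the gap allowed. The widths therefore do not show a narrower mark in the scramble library. Internal starts 3.35 and 3.98 kb downstream had 5 and 7 reads in each H3K4me3 library. Commd3, transcribed in the same direction from 4634 bases upstream, ends inside the Bmi1 window. At 70.15% GC the window is the richest of the 9; of 140 compared promoters within 2 percentage points of it, 92.1% had a lower ratio, and their median was 1.57. With the median ratio of promoters of like GC content subtracted Bmi1 was at 1.32, and it was the only member still called higher (7.04% of all promoters higher, 3.04% lower).

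Pcgf2 (Mel18), the close paralogue of Bmi1, did not show these values. Its window, chr11:97560812-97562811 on the minus strand, held 14 and 5 Jarid1b reads, 1.70-fold and 1.32-fold over the local rate, and was not called. H3K4me3 went from 111 reads (21.5 RPM) to 101 (38.3 RPM), a log2 ratio of 0.83 (0.43 to 1.23), below 2-fold. Outside the window the log2 ratios were negative. From 3 to 1 kb upstream the scramble and knockdown libraries held 142 and 35 reads (−1.05, −1.63 to −0.51). Those reads formed a block apart from the mark at the Pcgf2 start. The bin centred at −2250 bases held 30 and 16 reads, and that at −1750 bases held 0 and 0. The block ran on past 3 kb upstream, with 40 and 16 reads at −3050 bases. Whether it belongs to Pcgf2 or to another gene was not tested. From 1 to 3 kb downstream the libraries held 195 and 85 reads (−0.23, −0.61 to 0.15), an interval that includes no change. The start used by 3 transcripts, 849 bases downstream, held 193 and 143 reads (0.54, 0.21 to 0.86). Bmi1 and Pcgf2 therefore had H3K4me3 intervals that did not overlap, with 59.85% GC at Pcgf2.

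The RING genes had nearly the same H3K4me3 values. Rnf2, the main H2A ubiquitin ligase subunit in stem cells (chr1:153346954-153348953, minus strand), held 101 H3K4me3 reads in scramble and 122 in knockdown, or 19.6 and 46.3 RPM, and a log2 ratio of 1.24 (0.85 to 1.64). Ring1, its paralogue (chr17:34160626-34162625, minus strand), held 115 and 130, or 22.3 and 49.3 RPM, and a log2 ratio of 1.15 (0.77 to 1.52). Both lay above 2-fold on RPM, and both fell short of it when scaled to the overall median.

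They differed in where the reads lay. At Rnf2 the share of H3K4me3 reads downstream of the TSS was 85.1% in scramble (Wilson 95% interval 76.9 to 90.8) and 95.9% in knockdown (90.8 to 98.2). The kb downstream gave a log2 ratio of 1.41 (0.999 to 1.83) from 86 and 117 reads, and the kb upstream held 15 and 5. At Ring1 only 38.3% (29.9 to 47.4) and 40% (32 to 48.6) lay downstream, and both sides were alike (1.10 upstream, 1.21 downstream). The microRNA Mir219-1 starts 390 to 412 bases upstream of Ring1 on the same strand, so the upstream reads cannot be assigned to 1 of the 2 genes. Jarid1b reads numbered 19 and 5 at Rnf2 (5.60-fold, adjusted p = 2.21e-07, and 3.21-fold, adjusted p = 0.121, exact Poisson). At Ring1 they numbered 16 and 6 (1.95-fold, adjusted p = 0.0406, and 1.69-fold, adjusted p = 0.400, exact Poisson), so both passed in replicate 1 only.

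The CBX genes went in different directions. Cbx8, which binds trimethylated lysine 27 (chr11:118901284-118903283, minus strand), held 31 and 12 Jarid1b reads, 2.15-fold (1.46 to 3.05, adjusted p = 0.00105) and 2.63-fold (1.36 to 4.6, adjusted p = 0.0283) by the exact Poisson test. Its H3K4me3 went from 38 reads (7.37 RPM) to 76 (28.8 RPM), a log2 ratio of 1.97 (1.39 to 2.57), the same upstream (25 and 50 reads) and downstream (13 and 26). In raw reads its Jarid1b window was the fullest of the 9 in replicate 1, but the local rate gave 14.4 reads, against 3.39 at the genome rate, and its fold in replicate 1 was below that of Bmi1, Rnf2, Phc3 and Cbx2.

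Cbx2, a CBX protein that compacts nucleosomes (chr11:118883276-118885275, plus strand), had 15 and 6 Jarid1b reads (3.21-fold, adjusted p = 0.00109, and 2.57-fold, adjusted p = 0.167, exact Poisson) and H3K4me3 of 94 and 100 reads. Its log2 ratio of 1.06 (0.64 to 1.48) was the nearest of the called members to the 2-fold line, and it was not called in windows of 2 kb on each side (0.94). Ring1 lost its call under the same wider window (0.95).

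Cbx7 went the other way. Its gene-level window (chr15:79800550-79802549, minus strand) held 9 and 4 Jarid1b reads, 1.21-fold and 1.90-fold over the local rate, and was not called. H3K4me3 went from 323 reads (62.6 RPM, above 99.4% of all promoters) to 69 (26.2 RPM, above 73.2%), a log2 ratio of −1.26 (−1.66 to −0.88). Almost all of these reads lay downstream of the TSS, 97.2% in scramble and 94.2% in knockdown. The ratio was −1.30 (−1.71 to −0.91) over the first kb and −0.55 (−1.06 to −0.06) from 1 to 3 kb, and over the wider window of 2 kb on each side it was −0.96 (−1.27 to −0.67) and no longer called. Of 2830 promoters within 2 points of its 49.95% GC, 1.17% had a lower ratio. Repeated rows made up 37.2% of scramble rows in the window, the highest share of the 9, and 5.48% in knockdown. With all rows kept the ratio stayed called lower. Of 34-base words in the window 91.85% occur once in the genome, the lowest share of the 9, so some reads may lack a unique place.

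Cbx7 has other starts, and they behaved differently. The gene-level start is used by 2 annotated transcripts, and a start 38.47 kb downstream is used by 3. The second start held 204 reads in scramble and 104 in knockdown, equal at 39.5 RPM each, with a log2 ratio of −0.0033 (−0.36 to 0.34), an interval that does not overlap that of the gene-level start. Jarid1b reads there numbered 17 and 8, against 9 and 4. A minor start at 37.22 kb held 94 and 39 reads (−0.30, −0.88 to 0.25). On RPM, H3K4me3 was thus lower in the knockdown library at the gene-level start, whose printed upstream sequence has 5 CG dinucleotides, and level at the second. No other scaling was applied at the second start, and the median log2 ratio of all compared promoters was 0.41. The 2 starts also differ in upstream GC content (49.6% and 64.0%), and its part in the contrast was not tested. The second starts of Cbx7 and Phc1 were chosen after their values were seen.

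**Figure D2:**
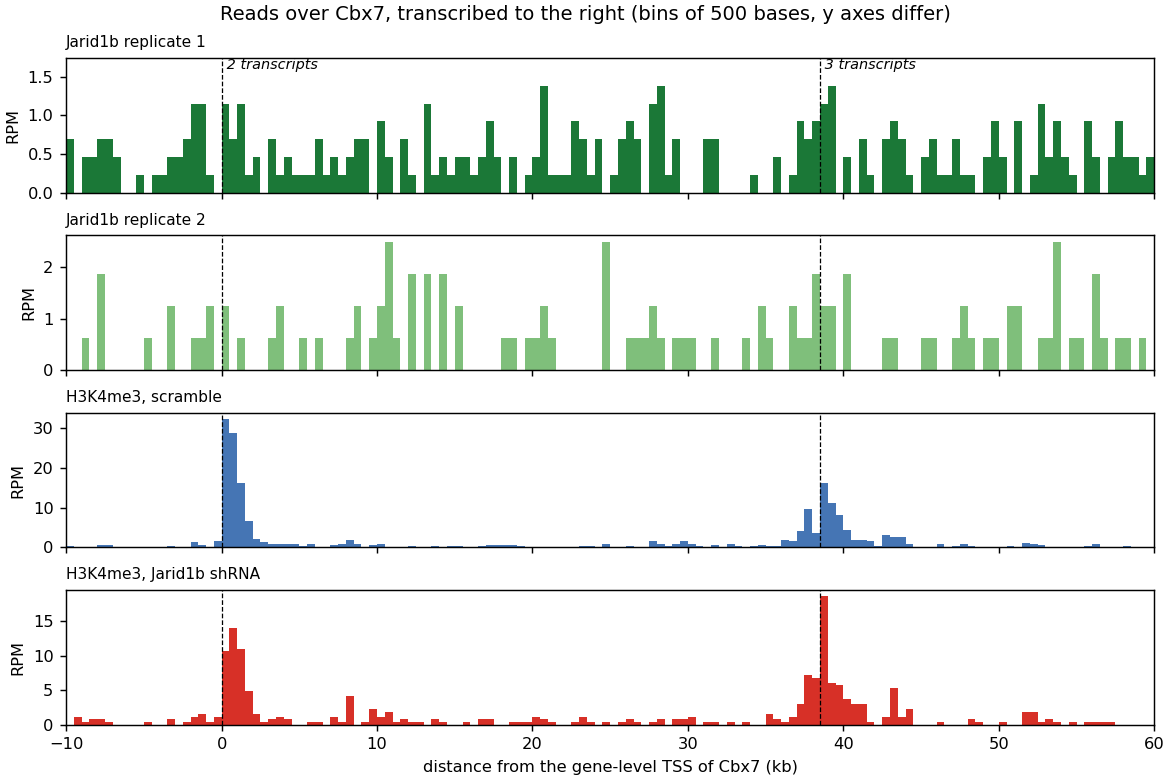
RPM in bins of 500 bases over Cbx7 in the 4 libraries, with dashed lines at the gene-level TSS (2 transcripts) and at the start 38.47 kb downstream (3 transcripts). H3K4me3 at the gene-level TSS drops below that at the second start in the knockdown library, and at the second start the log2 ratio is −0.0033.

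Of the PHC genes, Phc3 was called for Jarid1b and Phc1 was not, with fold intervals that overlap in both libraries; the difference was not tested. Phc3, a Polyhomeotic protein whose SAM domain links complexes (chr3:30867338-30869337, minus strand), held 12 and 8 Jarid1b reads, 3.54-fold (1.83 to 6.18, adjusted p = 0.00187) and 6.39-fold (2.76 to 12.6, adjusted p = 0.00167) by the exact Poisson test. Its expected count in replicate 1 was the genome rate of 3.39, by count it stood at percentile 76.2 of promoters, and at 1.37-fold and 2.34-fold against bins of the same GC content it was not called. H3K4me3 was 140 and 125 reads (27.1 and 47.4 RPM), a log2 ratio of 0.81 (0.45 to 1.16), and lay within 0.8 kb downstream in both libraries (96.4% and 97.6% of reads downstream).

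Phc1, a Polyhomeotic protein known from embryonic stem cells (chr6:122289580-122291579, minus strand), had the lowest values, with 5 and 2 Jarid1b reads (0.804-fold and 1.5-fold). Its gene-level window held 51 and 39 H3K4me3 reads, a log2 ratio of 0.58 (−0.06 to 1.21), and in scramble it did not exceed the local rate (0.868-fold). That window misses most of the mark. The start used by 8 transcripts, 853 bases downstream, held 207 and 87 reads (−0.28, −0.66 to 0.09). Starts 3.27 and 3.55 kb downstream held 162 and 42 (−0.98, −1.505 to −0.48) and 164 and 45 (−0.90, −1.41 to −0.41), and one at 5.42 kb held 51 and 10 (−1.38, −2.53 to −0.39). Windows of neighbouring starts overlap, those at 3.27 and 3.55 kb over most of their length, so these values share reads. In a window reaching 2 kb to either side of the gene-level TSS the ratio was −0.39 (−0.75 to −0.04), opposite in sign to the narrower window. H3K4me3 runs around the strongest start, 1.70 kb downstream, spanned 6.2 kb in scramble and 2.0 kb in knockdown, libraries of unequal depth.

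Taking for every gene the start with most H3K4me3 reads, summed over both H3K4me3 libraries so that the knockdown library enters the choice, kept the counts of members at 3 for Jarid1b (9.46% of all promoters), 5 higher (23.9% of 14030) and 1 lower (2.36%).

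**Figure D3:**
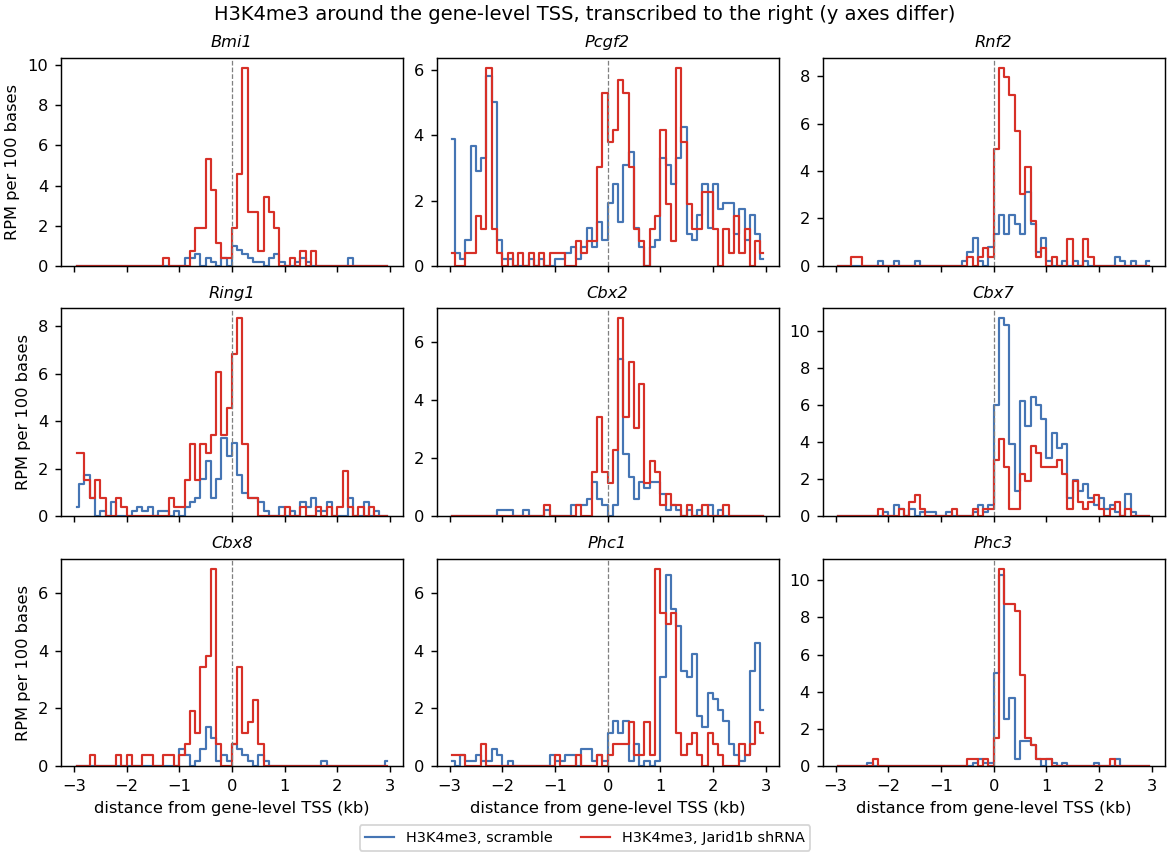
H3K4me3 in RPM per 100 bases within 3 kb of the gene-level TSS of each PRC1 gene, scramble (blue) against Jarid1b shRNA (red), with y axes that differ. The knockdown line stands above the scramble line on both sides of the TSS at Bmi1, Cbx8 and Ring1, below it at Cbx7, and both lines at Phc1 peak about 1 kb downstream of the gene-level TSS.

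Cbx2 and Cbx8 lie on opposite strands of chromosome 11, with the Cbx8 TSS 18.01 kb from that of Cbx2. Over chr11:118883276-118903275, in 20 bins of 1 kb that reach across both promoters, Jarid1b reads numbered 113 and 53, which is 3.33 and 4.23 times the genome rate and 1.43 (1.18 to 1.72) and 1.70 (1.28 to 2.23) times that of background bins with the same GC content. In the 16 bins outside the promoter windows the latter folds were 1.11 (0.860 to 1.41) and 1.48 (1.03 to 2.05). Between the 2 promoters replicate 1 thus did not differ from background of the same GC content beyond counting error. The interval of replicate 2 lay above that background. H3K4me3 outside the windows held 46 and 41 reads, a log2 ratio of 0.80 (0.16 to 1.44), against 1.25 (0.96 to 1.55) for the whole interval.

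**Figure D4:**
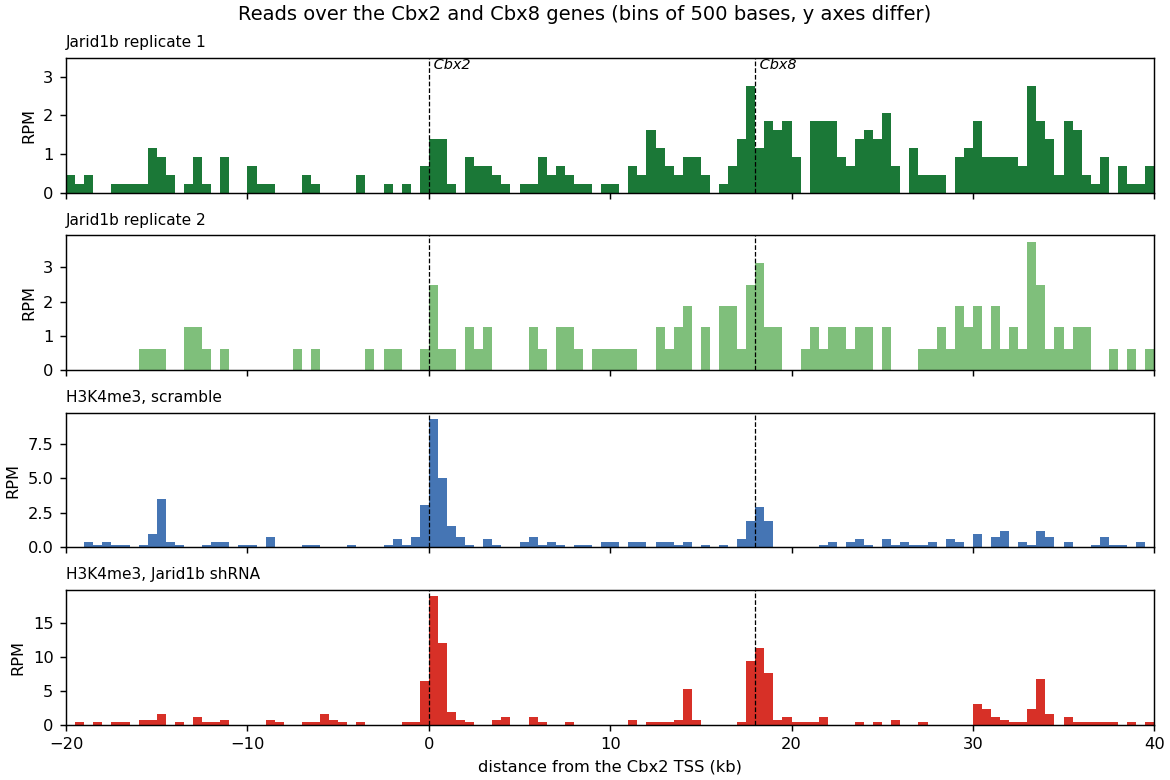
RPM in bins of 500 bases around the Cbx2 and Cbx8 genes in the 4 libraries, with dashed lines at both TSSs. H3K4me3 stands at both starts, with 94 reads at Cbx2 and 38 at Cbx8 in scramble and 100 and 76 in knockdown, and Jarid1b reads continue past the Cbx8 start on its upstream side.

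GC content moved with the H3K4me3 ratio. Across the 9 members Spearman's rho of window GC content and log2 ratio was 0.867, and across 13273 compared promoters it was 0.627; members share the same 2 libraries, and no p is given. The member with the most GC, Bmi1 (70.15%), had the highest ratio and the one with the least, Cbx7 (49.95%), the lowest. When the ratio of background bins of the same GC class was subtracted, Bmi1 (1.40, 0.84 to 1.99) and Cbx8 (1.11, 0.53 to 1.71) stayed higher and Cbx7 (−1.27) lower, against 6.68% and 4.02% of all promoters, and Rnf2 (0.53), Ring1 (0.29) and Cbx2 (0.20) did not. The class used for Bmi1, the richest in GC, held 96 bins with 132 scramble and 178 knockdown reads. These intervals leave out the counting error of the subtracted ratio. Subtracting the median of promoters of like GC content left Cbx8 at 0.80, Cbx7 at −1.25 and Ring1 at −0.024. Compared with promoters within 2 points of their GC content, 89.6% lay below Cbx8, 70.7% below Rnf2, 52.8% below Ring1 and 51.8% below Cbx2. The part of GC content in these ratios was not tested further. Summing the reads of both Jarid1b libraries called 6 members, against 34.3% of all promoters. Fragments shared by the Jarid1b files entered that sum from each, although the Poisson test takes reads as independent.

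**Figure D5:**
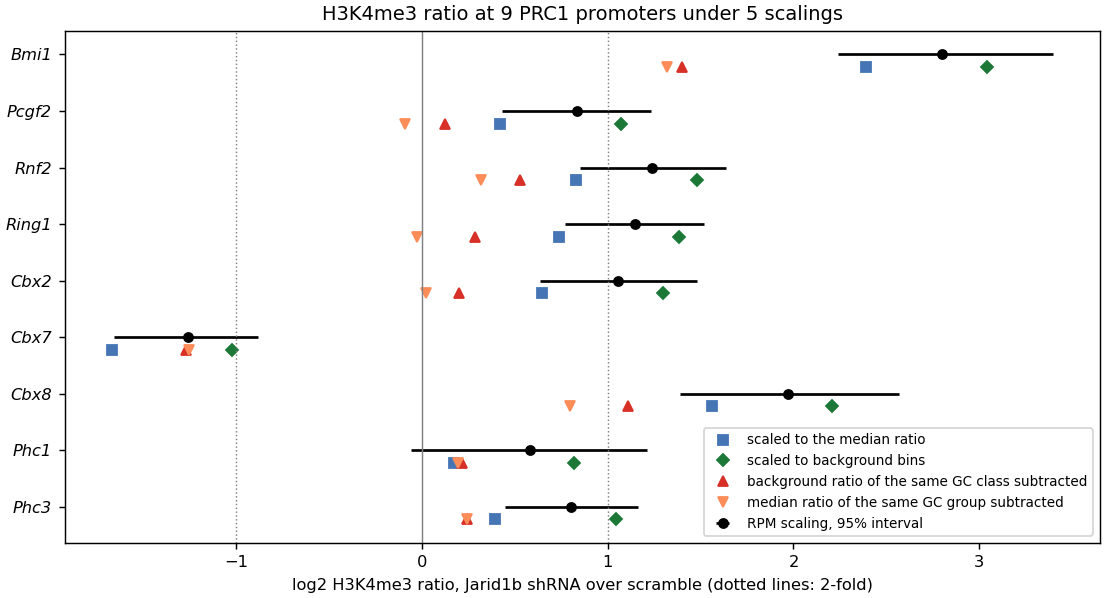
The log2 H3K4me3 ratio of Jarid1b shRNA over scramble at the 9 PRC1 promoters on RPM (black, 95% interval) and under 4 other scalings (coloured, without intervals), with dotted lines at 2-fold. Bmi1 lies right of the 2-fold line and Cbx7 left of it under all 5 scalings. Rnf2, Ring1, Cbx2, Cbx8, Pcgf2 and Phc3 cross the line between scalings, and Phc1 lies between the lines under all 5.

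Other subunits of PRC1, mostly of its variant forms, were taken as a list of 18. Jarid1b was called at 2 of them, Yaf2 (3.43-fold and 6.39-fold) and Bcorl1 (4.24-fold and 3.71-fold), against 3 of the 9 genes above and 7.97% of all promoters. Calls with the GC rate added to the background, which leaves 0.595% of all promoters, are not given for this list. Of 16 compared, 6 had higher H3K4me3 in the knockdown library and none was lower, against 24.0% and 2.37% of all compared promoters. These were Bcorl1 (2.47), Scmh1 (1.95), Yaf2 (1.94), Phc2 (1.69), Auts2 (1.35) and Rybp (1.14). Their median log2 ratio was 0.58, and the lowest were L3mbtl2 (−0.88, −1.36 to −0.43) and Usp7 (−0.79, −1.51 to −0.11). The third PHC paralogue, Phc2, thus had 34 and 56 reads and was called higher, where Phc1 and Phc3 were not; its interval (1.05 to 2.35) overlaps theirs, and the difference was not tested. Pcgf1, which builds the variant complex with Kdm2b and Bcor, held 220 and 124 reads (0.14), and Pcgf5 and Scml2 held 2 and 0 and 1 and 0 reads.

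PRC2, which lays down the mark that canonical PRC1 reads, was taken as a list of 11. Jarid1b was called at 2, Suz12 (3.44-fold and 7.19-fold) and Jarid2 (3.19-fold and 3.27-fold), against 7.97% of all promoters. Here too, calls with the GC rate added are not given. All 11 were compared, with 2 higher, Jarid2 (1.17, 0.77 to 1.57) and Phf19 (1.12, 0.43 to 1.81), none lower and a median log2 ratio of 0.49, against 24.0% higher and 2.37% lower of all compared promoters. Mtf2 (−0.85) and Eed (−0.80) were the lowest, and the catalytic subunits Ezh2 (0.82) and Ezh1 (0.69) lay near Pcgf2 and Phc3. Neither list was tested against the 9 members.

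The promoters most like Bmi1 over the 4 libraries, by the distance between log2 RPM values, were those of Grm4 (distance 0.534), Kcnk12 (0.610) and Map3k5 (0.641). Both H3K4me3 libraries enter that distance, so a ratio near that of Bmi1 follows from the choice; their H3K4me3 ratios were 2.98, 2.08 and 2.52 and their GC contents 70.7%, 68.1% and 66.9%.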

How the data were processed

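The 4 deposited BED files were used, 1 per library, each with 1 row per aligned read (chromosome, start, end and strand) and a score of 0 throughout. Per the labels' protocols, the authors mapped reads to mm9 with Bowtie (version not given in the sources used here), kept 1 match per position, called peaks with MACS and normalized to IgG; the deposited rows repeat positions and hold no peaks, so they precede the later steps, and no IgG library was used here. Reads on the 19 autosomes, X and Y were reduced to 1 per strand and 5′ position, shifted 75 bases inwards and counted in each window with Python 3.11.15, numpy 2.4.6, pandas 2.3.3, scipy 1.17.1 and numba 0.67.0. Rows numbered 5120111 and 1736183 for Jarid1b (reads of 34 and 26 bases), 7530697 for scramble and 2851928 for Jarid1b shRNA H3K4me3 (34 and 35 bases); repeats made up 15.3%, 7.69%, 31.5% and 7.56%. The genome rate was 3.39, 1.25, 4.03 and 2.06 reads per 2 kb window.

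Enrichment was tested within each library by a one-sided exact Poisson test, Benjamini-Hochberg adjusted over 22367 protein-coding promoters (threshold 0.05), and scripts were tested on simulated data. Ratios are log2 of RPM, with exact Clopper-Pearson 95% intervals conditional on the summed reads. GC classes (14) were built from 1 kb autosomal bins over 5 kb from any protein-coding TSS. Bins enriched in either H3K4me3 library, or with at least 30 reads in any library, were left out. Promoters were also put in 20 groups of GC content. Other windows, filters, scalings and starts were tried. All 9 members were named, with the highest and lowest ratios of each list. Of the genes first listed, 1 is not reported here. The members and lists were chosen with earlier results of these data known. Marker genes were 14, of which 13 matched.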

Additional observations from a re-analysis of the deposited data

How the results depend on the processing

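Jarid1b was called at 3 members. The count was 7 with the genome rate alone, 1 with the GC class rate added to the background (Bmi1), and 6 with the reads of both libraries summed. Fragments shared by the libraries entered that sum from each. With either replicate left out the count was 3 to 6 (6 without replicate 2). The 5 higher members became 2 scaled to the median ratio, 2 with the background ratio of the GC class subtracted, 1 with the median ratio of the GC group subtracted, and 3 in windows of 2 kb on each side, where the 1 lower member became 0. Ring1 changed sign to −0.024 with the GC group median subtracted. Other PRC1 genes called higher numbered 6, and 3 and 2 under the GC class and GC group settings; those called lower numbered 0, and 2 scaled to the median ratio. PRC2 genes called higher numbered 2, and 0 under the median, GC class and GC group settings; those called lower numbered 0, and 2, 1 and 1 under the same settings. The cause was not tested. For H3K4me3 ratios of single members, 99 alternative values were computed. Of these 70 kept direction and call, 13 lost a call without a change of sign, 6 gained one and 9 moved without a call. The remaining 1, Ring1 with the GC group median subtracted, lost its call and changed sign. Some of the 9 that moved also changed sign. These were Pcgf2 with the GC group median subtracted (−0.092), and Phc1 in windows of 2 kb on each side (−0.39), at the start with most H3K4me3 (−0.48) and at the start with most transcripts (−0.28). For Jarid1b, 65 of 72 kept the call, 4 gained it and 3 lost it, among them Cbx8 at an adjusted p of 0.01. No paired analysis was possible because each H3K4me3 condition has 1 library.

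Depth limits the Jarid1b values: windows at the members held 5 to 31 reads in replicate 1 and 2 to 19 in replicate 2, so a Poisson interval at 5 reads reaches from 0.261-fold to 1.88-fold (Phc1). An enrichment within such an interval was not detectable at this depth.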
